A study of Mus musculus with 15 samples.

Results

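The genes of antigen presentation by the class II major histocompatibility complex (MHC class II) were followed across 15 arrays of mouse colon. The set of 10 genes was named from their textbook roles: H2-Aa, H2-Ab1, H2-Eb1, H2-DMa, H2-DMb1, H2-DMb2, H2-Oa, H2-Ob, Cd74 and Ciita. A gene entered where a probe set was annotated to its symbol alone, and its brightest probe set by mean signal stood for it. This gave 9 measured genes of 18193 on the array and 19 probe sets. H2-DMb1 had no probe set of its own, because its probe sets were also annotated to H2-DMb2, and it has no value here. With 3 probe sets left out for naming several genes, 5 of the 9 genes kept more than 1 probe set.

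MHC class II molecules are pairs of an alpha and a beta chain that display peptides from internalised proteins to CD4 T cells. Cd74, the invariant chain, escorts newly made pairs and blocks their groove, H2-DM exchanges its remnant for peptide, and H2-O, which is found mainly in B cells, restrains H2-DM. The transactivator Ciita is recruited to conserved promoter boxes bound by the RFX complex and NF-Y, and switches these genes on together, constitutively in dendritic cells and B cells and under interferon gamma in other cells. Colon epithelium carries class II as well, at levels that vary with inflammation.

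The study compared the colons of male littermates aged 3 months on a C57BL/6 and 129 hybrid background, with 3 arrays in each of 5 groups. Wild type mice were APC+/+/Olfm4+/+, APC mutant mice APC+/-/OLFM4(+/+), and Olfm4 mutant mice APC+/+/Olfm4-/-. The APC/Olfm4 mutant mice, APC+/-/Olfm4-/-, gave both a tumour and the normal tissue adjacent to it, and no tumour of an APC mutant with intact Olfm4 was among the 15 arrays. Olfm4 encodes a secreted glycoprotein of the crypt, and Apc is the tumour suppressor that restrains Wnt signalling. The series' design text speaks of 3 mice in each category, but by the sample titles the double mutant arrays came from 2 animals: replicate 1 of both tissues from the first, replicates 2 and 3 of both tissues from the other. If the titles hold, those 2 replicates are not separate mice and p-values over these arrays are too small. The identity of Olfm4 mutant replicate 3 is unclear, because its title joins digits of the numbers of the other Olfm4 mutant animals.

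Several properties of the arrays bear on what follows. The Olfm4 probe set lay between 2.97 and 3.32 in all 15 arrays, wild type included, and so gave no check of the genotype. Apc has 4 probe sets, of which 2 were higher and 2 lower in adjacent tissue than in wild type, and the allele's structure is not given in the sources used here. Of the bacterial RNAs added to each sample, 4 are read at both ends, and the mean 3′ minus 5′ difference was 1.99 ± 0.083 in wild type arrays, 2.16 ± 0.203 with the APC mutant, 2.64 ± 0.525 with the Olfm4 mutant, 4.10 ± 0.300 in adjacent tissue and 5.01 ± 0.255 in tumour (log2, SD, n = 3). The group means of this difference follow the order in which the arrays are numbered. That order passes through the groups in blocks, so array order and group cannot be told apart. Markers of colon epithelium were high in every group. In tumour against adjacent tissue 7 of 9 colon markers and 6 of 10 epithelial markers fell, where 13.8% of all genes did.

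All values are log2 signal, and differences are log2 with their standard error (SE). A gene is said to rise or fall where limma's adjusted p, by Benjamini-Hochberg over all 18193 genes, is under 0.05. In tumour against adjacent tissue 3 of the 9 class II genes fell and none rose, while 28.1% of all genes passed in either direction, 14.3% higher and 13.8% lower. The 3 were H2-DMb2, H2-Oa and H2-Ob. The chains that present peptide, the invariant chain and Ciita did not pass. The median of the 9 differences was −0.41, against 0.002 over all genes.

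**Figure D1:**
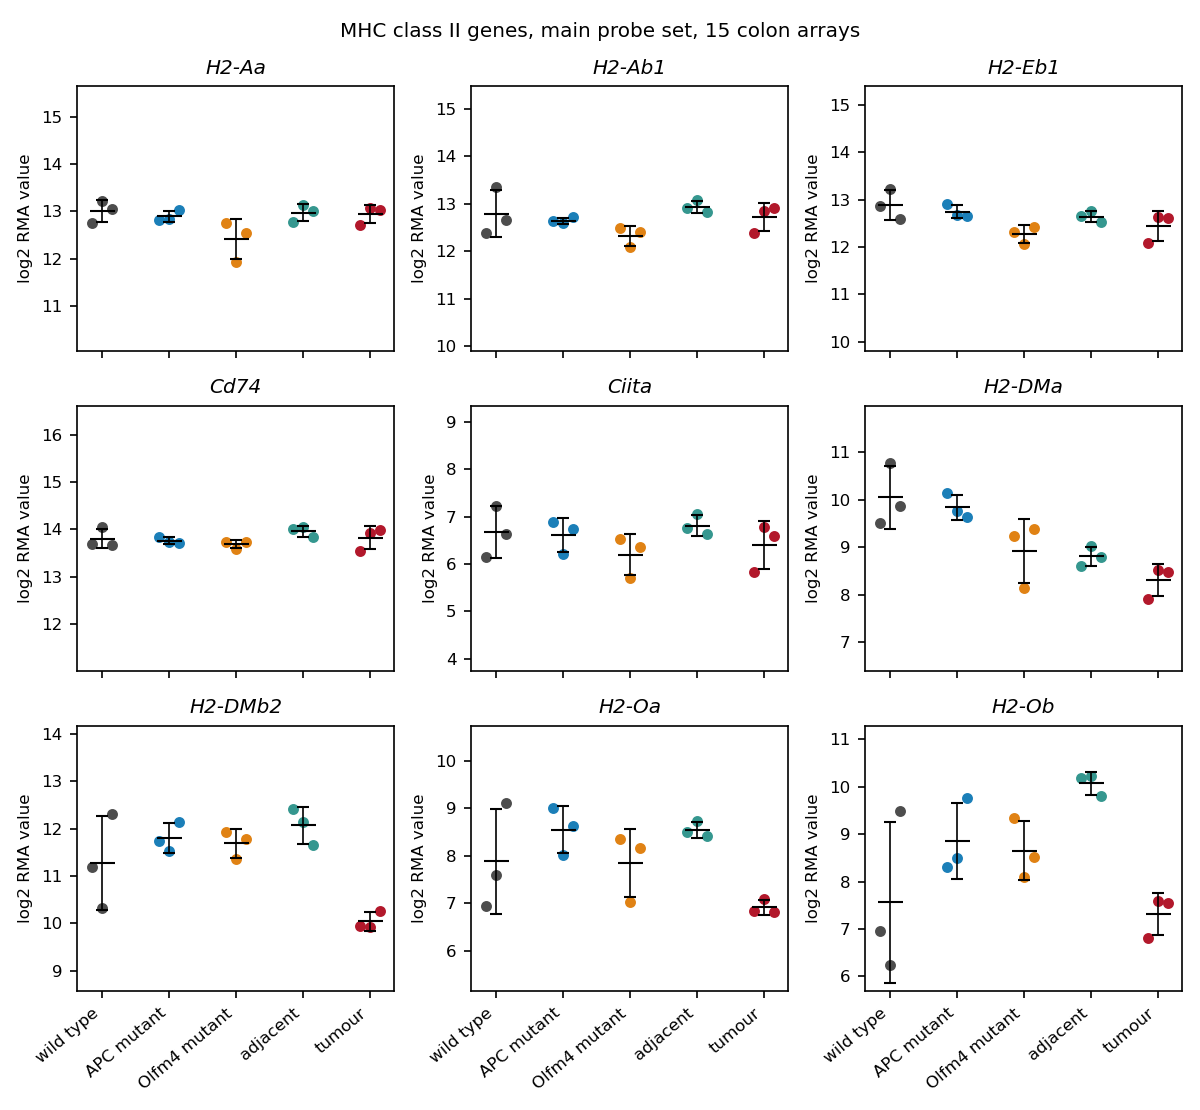
Log2 signal of the 9 measured class II genes, each through its brightest probe set, in 5 groups of 3 arrays; each point is an array, and bars give the group mean with its SD. H2-DMb2, H2-Oa and H2-Ob were lower in every tumour array than in every adjacent array, while H2-Aa, H2-Ab1, H2-Eb1, Cd74 and Ciita overlapped between the 2 tissues.

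The classical chains come first. H2-Aa is the alpha chain of I-A, H2-Ab1 its beta chain, and H2-Eb1 the beta chain of I-E. H2-Aa read 12.76, 13.21 and 13.06 in the wild type arrays, 12.82, 12.84 and 13.03 in the APC mutant, 12.76, 11.94 and 12.55 in the Olfm4 mutant, 12.77, 13.13 and 13.01 in adjacent tissue, and 12.72, 13.06 and 13.03 in tumour. The lowest reading was Olfm4 mutant replicate 2, and the other groups covered one another. The difference of tumour from adjacent tissue was −0.03 (95% interval −0.45 to 0.40, adjusted p = 0.94 by limma).

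H2-Ab1 read 12.37, 13.35 and 12.66 in wild type, 12.64, 12.59 and 12.71 in the APC mutant, 12.49, 12.08 and 12.41 in the Olfm4 mutant, 12.92, 13.08 and 12.83 in adjacent tissue, and 12.39, 12.85 and 12.92 in tumour. Wild type alone spanned 12.37 to 13.35, where all 15 arrays spanned 12.08 to 13.35. Tumour differed from adjacent tissue by −0.22 (95% interval −0.69 to 0.25). H2-Eb1 read 12.86, 13.22 and 12.59 in wild type, 12.91, 12.67 and 12.67 in the APC mutant, 12.31, 12.06 and 12.43 in the Olfm4 mutant, 12.65, 12.75 and 12.52 in adjacent tissue, and 12.07, 12.64 and 12.60 in tumour. Its Olfm4 mutant arrays lay below all 9 arrays of wild type, APC mutant and adjacent tissue, and its tumour arrays overlapped theirs. Tumour differed from adjacent tissue by −0.20 (95% interval −0.60 to 0.20).

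Cd74 was the steadiest of the 9 genes. Its group means were 13.81 ± 0.21 in wild type, 13.77 ± 0.06 in the APC mutant, 13.69 ± 0.08 in the Olfm4 mutant, 13.96 ± 0.11 in adjacent tissue and 13.82 ± 0.24 in tumour (SD, n = 3). Tumour differed from adjacent tissue by −0.14 (95% interval −0.44 to 0.16).

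**Figure D2:**
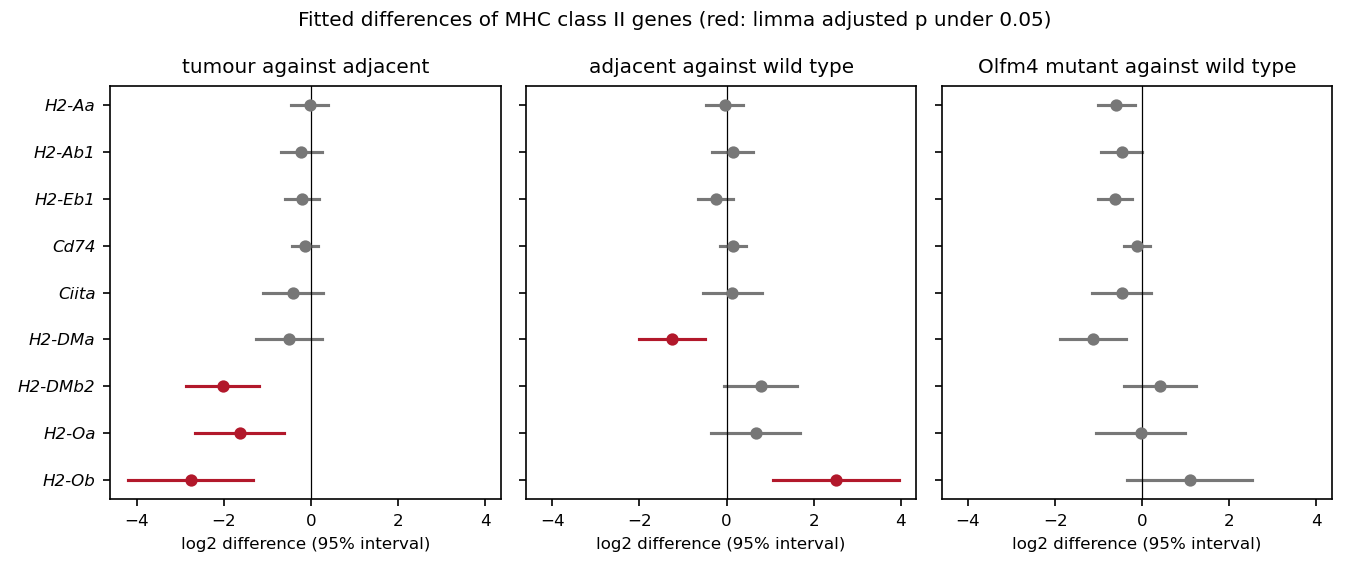
Log2 difference of each class II gene with its 95% interval from limma, for tumour against adjacent tissue, adjacent tissue against wild type and Olfm4 mutant against wild type; the vertical line marks no difference, and red marks an adjusted p under 0.05. Each gene is read through its brightest probe set. H2-DMb2, H2-Oa and H2-Ob lie well to the low side in tumour against adjacent tissue. H2-Aa, H2-Ab1, H2-Eb1 and Cd74 stay close to 0 there, and dimmer probe sets of H2-Aa and H2-Ab1 that read lower in tumour are not shown.

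The peptide editors of the DM family divided. H2-DMb2 encodes 1 of the mouse's DM beta chains, which pair with the alpha chain from H2-DMa. H2-DMb2 read 11.19, 10.33 and 12.32 in wild type, 11.74, 11.52 and 12.13 in the APC mutant, 11.94, 11.35 and 11.78 in the Olfm4 mutant, 12.41, 12.14 and 11.65 in adjacent tissue, and 9.94, 9.92 and 10.26 in tumour. All 3 tumour arrays lay below the other 12. It fell 4.07-fold in tumour against adjacent tissue (log2 −2.03, SE 0.39, adjusted p = 0.0016 by limma). Its dimmer probe set 1419744_at did not pass there, with 6.67, 6.59 and 6.37 in adjacent tissue and 6.47, 6.64 and 6.33 in tumour (−0.06, 95% interval −0.90 to 0.78), while a second bright one fell by 2.07. Through the main probe set it also fell against wild type (−1.24, adjusted p = 0.017), against APC mutant (−1.76, adjusted p = 0.0023) and against Olfm4 mutant (−1.65, adjusted p = 0.0042). The fall against wild type rests on wild type replicate 3: without it the difference was −0.72 and the adjusted p 0.064, and the call was also lost without tumour replicate 2 (−1.18, adjusted p = 0.051).

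H2-DMa, the DM alpha chain, read 9.51, 10.79 and 9.86 in wild type, 10.14, 9.76 and 9.63 in the APC mutant, 9.23, 8.15 and 9.37 in the Olfm4 mutant, 8.60, 9.01 and 8.80 in adjacent tissue, and 7.91, 8.52 and 8.47 in tumour. Every double mutant array, of either tissue, lay below every wild type and APC mutant array. In adjacent tissue against wild type H2-DMa fell (−1.25, SE 0.35, adjusted p = 0.019) and H2-Ob rose, the 2 of 9 genes that passed where 27.8% of all genes did (17.7% higher, 10.1% lower). H2-DMa was lower again in tumour, at −1.75 from wild type (adjusted p = 0.0011) and −1.54 from APC mutant (adjusted p = 0.0028). Tumour and adjacent tissue did not differ past the threshold (−0.51, 95% interval −1.26 to 0.25), although their ranges did not touch, as held for 22.3% of all genes in that direction.

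Across the groups H2-DMa had a lower mean where the mean spike-in 3′ minus 5′ difference was higher. Over the 15 arrays its correlation with the spike-in 3′ minus 5′ difference was −0.822, which includes the differences between groups. With that difference as a covariate H2-DMa in adjacent tissue against wild type came out at 0.49 (SE 0.88, 95% interval −1.43 to 2.41). That interval includes the main estimate of −1.25. The covariate nearly repeats the groups, so this fit cannot decide whether the fall holds. The second H2-DMa probe set, which reads 6.96, 8.42 and 8.24 in wild type and 7.57, 7.33 and 7.41 in adjacent tissue, overlapped between the 2 groups. The call in adjacent tissue was also lost without wild type replicate 2 (−0.88, adjusted p = 0.080), adjacent replicate 1 (−1.14, adjusted p = 0.059) or adjacent replicate 3 (−1.24, adjusted p = 0.052). The part of the array order in the H2-DMa fall was not tested apart from the groups.

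The H2-O chains are the modulators of DM. H2-Ob, the beta chain, read 6.96, 6.25 and 9.48 in wild type, 8.30, 8.50 and 9.76 in the APC mutant, 9.33, 8.10 and 8.52 in the Olfm4 mutant, 10.19, 10.24 and 9.80 in adjacent tissue, and 6.81, 7.59 and 7.54 in tumour. Wild type replicate 3 stood far above the other 2 wild type arrays, and adjacent tissue was above every other array. H2-Ob fell 6.78-fold in tumour against adjacent tissue (log2 −2.76, SE 0.66, adjusted p = 0.0071 by limma). It rose 5.71-fold in adjacent tissue against wild type (log2 2.51, adjusted p = 0.014), which was 1.86 with an adjusted p of 0.061 without wild type replicate 2 and 3.47 without wild type replicate 3 (adjusted p = 0.00081). Tumour differed from wild type by −0.25 (95% interval −1.68 to 1.19).

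H2-Oa, the alpha chain, read 6.95, 7.59 and 9.11 in wild type, 9.01, 8.01 and 8.64 in the APC mutant, 8.35, 7.02 and 8.17 in the Olfm4 mutant, 8.51, 8.73 and 8.41 in adjacent tissue, and 6.85, 7.10 and 6.81 in tumour. Its wild type arrays split as those of H2-Ob did, with replicate 3 the highest of all 15. It fell 3.10-fold in tumour against adjacent tissue (log2 −1.63, SE 0.47, adjusted p = 0.019 by limma) and by the same 3.10-fold against APC mutant (adjusted p = 0.012). The first of these lay near the threshold. It was lost without adjacent replicate 2 (adjusted p = 0.066), tumour replicate 1 (0.051) or tumour replicate 3 (0.059), and when arrays of an animal were averaged (0.098). The second was lost without APC mutant replicate 1 (−1.41, adjusted p = 0.051).

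Ranked by group mean, H2-Ob ran from adjacent tissue (10.08) through APC mutant (8.86), Olfm4 mutant (8.65) and wild type (7.56) to tumour (7.31). H2-Oa ran from APC mutant and adjacent tissue (both 8.55) through wild type (7.88) and Olfm4 mutant (7.85) to tumour (6.92). Tumour thus had the lowest mean of both H2-O chains. H2-DMb2 ran from adjacent tissue (12.07) through APC mutant (11.80), Olfm4 mutant (11.69) and wild type (11.28) to tumour (10.04). H2-DMa ran from wild type (10.05) through APC mutant (9.84), Olfm4 mutant (8.92) and adjacent tissue (8.81) to tumour (8.30). Of neighbouring groups in such an order for each of the 9 genes, only wild type and tumour for H2-DMb2 differed past the threshold.

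With the spike-in difference as a covariate none of the 3 falls in tumour against adjacent tissue passed, and each kept its direction. The share of all genes that passed in that fit is not given here, so the loss is no result about class II genes in particular. H2-DMb2 was then at −1.53 (adjusted p = 0.12), H2-Oa at −0.94 (0.46) and H2-Ob at −2.44 (0.17). Over the 15 arrays the correlation with the spike-in difference was −0.021 for H2-Ob, −0.429 for H2-Oa and −0.492 for H2-DMb2. These values include the differences between all 5 groups and do not bear on tumour against adjacent tissue alone.

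A B cell list of 12 measured genes, taken from textbook markers, moved the same way as H2-O and H2-DMb2. In tumour against adjacent tissue 10 of the 12 fell and none rose, with a median difference of −2.47, where 13.8% of all genes fell. Ms4a1, which encodes CD20, fell by 4.01 (SE 1.02, adjusted p = 0.0099 by limma), Fcmr, an IgM receptor, fell by 3.60, and Cd79a, a signalling chain of the B cell receptor, fell by 2.57. The mean of the list was 7.07, 6.68 and 8.49 in wild type, 8.15, 7.44 and 8.53 in the APC mutant, 8.09, 7.46 and 7.98 in the Olfm4 mutant, 8.87, 8.85 and 8.26 in adjacent tissue, and 6.06, 6.63 and 6.68 in tumour. Wild type replicate 3 was again the high wild type array. Against wild type, 5 of the 12 rose in adjacent tissue, where 17.7% of all genes did. Fcmr rose by 3.00 and Cd22, an inhibitory coreceptor, by 2.12, while Ms4a1 (2.79, adjusted p = 0.058 by limma) and Cd79a (0.47) did not pass. In whole tissue fewer B cells and less RNA per B cell cannot be told apart, and the part of B cells in the H2-O and H2-DMb2 results was not tested.

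**Figure D3:**
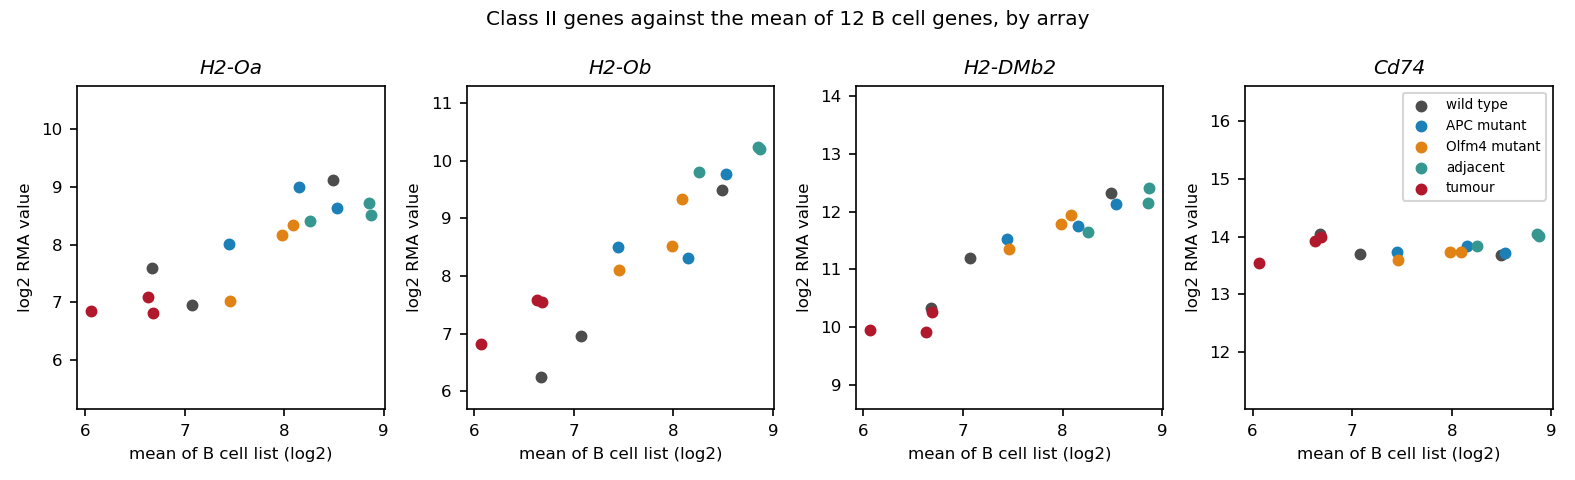
Log2 signal of class II genes (vertical axes) against the mean log2 signal of the 12 measured B cell markers (horizontal axes), with each of the 15 arrays as a point coloured by group. H2-Oa, H2-Ob and H2-DMb2 were low in tumour, where the B cell mean was 6.06 to 6.68, and high in adjacent tissue, where it was 8.26 to 8.87; Cd74 overlapped between the 2.

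Markers of other cells that carry class II were counted in the same comparison, in which 14.3% of all genes rose and 13.8% fell. Of 14 dendritic cell markers 2 rose and none fell in tumour against adjacent tissue. Itgax, the CD11c integrin chain, rose by 0.75 (adjusted p = 0.014), while Flt3, a receptor needed for dendritic cell development, differed by −0.20. Of 14 macrophage markers 3 fell and none rose. Cd163 fell by 3.50 and Mertk by 1.68, while Csf1r, the macrophage growth factor receptor, differed by 0.03. Plasma cell markers fell in 6 of 8 cases, among them Irf4 (−2.41) and Mzb1 (−2.39), and plasma cells themselves carry little class II. Among 8 genes of all leukocytes none passed, and Ptprc, which encodes CD45, differed by −0.48. At an unadjusted p under 0.05 the all-gene share in this comparison was 38.2%, and 3 of the 9 class II genes reached it.

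H2-Eb2, a beta chain gene next to H2-Eb1, stood outside the named set and, like H2-Ob, had its highest mean in adjacent tissue and its lowest in tumour. Its group means were 7.02 ± 1.13 in wild type, 7.65 ± 0.43 in the APC mutant, 7.22 ± 0.64 in the Olfm4 mutant, 8.23 ± 0.47 in adjacent tissue and 6.25 ± 0.15 in tumour (SD, n = 3). It fell by 1.98 in tumour against adjacent tissue (adjusted p = 0.0072) and differed by 1.21 in adjacent tissue against wild type (adjusted p = 0.078). H2-Ea, the I-E alpha gene that is inactive in C57BL/6, had group means between 5.66 and 5.93.

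Within groups the 9 genes fell into 2 sets, a division made after the values were seen. After each group's mean was taken away, the 15 pairs among H2-Aa, H2-Ab1, H2-Eb1, H2-DMa, Cd74 and Ciita had correlations from 0.531 to 0.933 (median 0.803). The 3 pairs among H2-Oa, H2-Ob and H2-DMb2 had 0.667, 0.719 and 0.903. The 18 pairs between the sets ran from −0.35 to 0.566 with a median of 0.006. Wild type replicate 2 shows the division: it was the highest wild type array for all 6 genes of the first set and the lowest for H2-DMb2 and H2-Ob of the second. These correlations describe 15 arrays that share their group means and normalisation, and they carry no test.

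**Figure D4:**
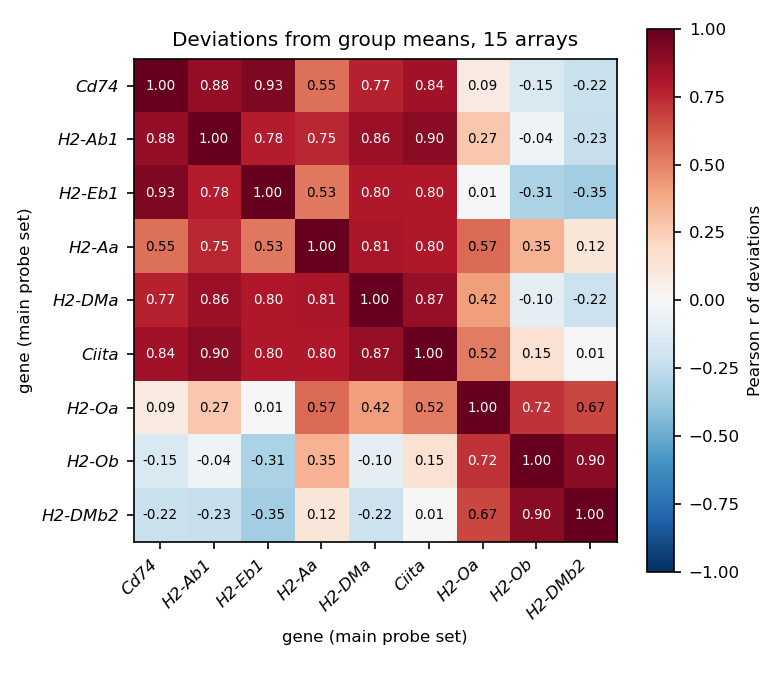
Pearson correlation between the 9 class II genes over 15 arrays after subtraction of group means, with genes along both axes and colour and number giving the correlation. The 6 genes H2-Aa, H2-Ab1, H2-Eb1, H2-DMa, Cd74 and Ciita form a block of 0.531 to 0.933, and H2-DMb2, H2-Oa and H2-Ob a second of 0.667 to 0.903.

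Because the genes share a known promoter architecture, the 150 bases before the RefSeq start are shown for the 4 genes that hold both boxes searched and for H2-DMb2. The letters searched, chosen after reading these windows, were TGATTGG, the core of the Y box that NF-Y binds, and GCAAC, a core within the X box that RFX binds. Each was looked for on both strands in the 250 bases before the start. Coordinates are of build GRCm38.p6, each line reads 5′ to 3′ towards the gene, and capitals mark TGATTGG, with GCAAC where it precedes it on the same strand.
H2-Aa, chr17:34287824-34287973, minus strand: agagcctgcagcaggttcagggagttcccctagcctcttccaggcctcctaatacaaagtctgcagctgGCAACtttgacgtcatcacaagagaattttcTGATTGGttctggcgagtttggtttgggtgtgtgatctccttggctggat
H2-Eb1, chr17:34305717-34305866, plus strand: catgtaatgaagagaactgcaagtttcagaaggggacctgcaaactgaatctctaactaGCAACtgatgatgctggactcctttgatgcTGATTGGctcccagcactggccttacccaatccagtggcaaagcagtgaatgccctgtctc
H2-DMb2, chr17:34145099-34145248, plus strand: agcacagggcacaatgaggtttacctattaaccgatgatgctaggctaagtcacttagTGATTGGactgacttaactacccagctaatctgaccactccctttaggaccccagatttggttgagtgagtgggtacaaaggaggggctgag
H2-Oa, chr17:34092229-34092378, plus strand: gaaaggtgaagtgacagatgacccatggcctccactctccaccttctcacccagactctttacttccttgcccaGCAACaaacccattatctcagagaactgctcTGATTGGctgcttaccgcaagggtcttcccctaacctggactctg
H2-Ob, chr17:34238755-34238904, plus strand: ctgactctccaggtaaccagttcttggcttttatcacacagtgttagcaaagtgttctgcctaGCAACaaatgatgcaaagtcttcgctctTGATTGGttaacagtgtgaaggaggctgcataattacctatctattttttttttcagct

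RefSeq's promoter table held 7 of the 10 genes, in 8 windows, and gave no entry for H2-Ab1, Cd74 and Ciita. TGATTGG was found for 6 of those 7, in 6 of the 8 windows. Of 32851 promoter windows 7.23% hold it on either strand, and 29.88% hold GCAAC. Because the letters were chosen after reading the class II windows, setting these shares beside them is no test. GCAAC followed by TGATTGG on the same strand after 10 to 30 bases occurred in 59 windows (0.18%), 4 of them class II genes. The gap was 26 bases in H2-Aa, 25 in H2-Eb1, 26 in H2-Oa and 23 in H2-Ob. Of the 4 genes with the pair, H2-Oa and H2-Ob fell in tumour against adjacent tissue. H2-Aa and H2-Eb1 did not pass there through their main probe sets, and the genes were not tested against one another. H2-DMb2 held TGATTGG 92 bases before the start and no such pair. A match describes letters and shows no binding.

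Ciita, the transactivator itself, read 6.15, 7.23 and 6.64 in wild type, 6.89, 6.21 and 6.73 in the APC mutant, 6.52, 5.71 and 6.36 in the Olfm4 mutant, 6.75, 7.05 and 6.62 in adjacent tissue, and 5.83, 6.77 and 6.59 in tumour. Through this main probe set tumour and adjacent tissue overlapped, with a difference of −0.41 (95% interval −1.09 to 0.28). Of the 9 genes Ciita was the one closest to the mean of the other 8, with a correlation of 0.894 over the 15 arrays and 0.919 after group means were taken away. For H2-DMb2 and H2-Ob those over 15 arrays were 0.328 and 0.337. A second Ciita probe set, 1421210_at, rose in adjacent tissue against wild type (0.74, limma adjusted p = 0.021 over all probe sets). The main one differed by 0.14 there. The second probe set read 5.76 to 6.30 in tumour, wholly below its 6.33 to 6.81 in adjacent tissue. Such a gap held in that direction for 22.3% of all genes, each read through its brightest probe set.

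Genes listed as class II regulators passed in both directions. Of 16 measured class II regulators 4 rose and 4 fell in tumour against adjacent tissue, where 14.3% of all genes rose and 13.8% fell. Rfx5, the DNA-binding subunit of RFX, rose by 1.04 (SE 0.23, adjusted p = 0.0044), Rfxank, its ankyrin subunit, fell by 1.03 (adjusted p = 0.016), and Rfxap, its remaining subunit, differed by 0.33. Ezh2, the histone methyltransferase of Polycomb, rose by 1.36 and the deacetylase Hdac2 by 1.07, while the acetyltransferase Kat2b fell by 0.57. Between adjacent tissue and wild type 7 regulators rose and 1 fell, where 17.7% of all genes rose and 10.1% fell. Rfx5 was again higher (1.08, adjusted p = 0.0046 by limma) and Rfxank lower (−1.57, adjusted p = 0.0020). Rfx5 read 8.48 to 9.31 in wild type, 9.85 to 10.21 in adjacent tissue and 11.03 to 11.20 in tumour. Rfxank went the other way, from 9.93 to 10.26 through 8.37 to 8.63 to 7.25 to 7.57. Both follow the order of the spike-in difference, and its part was not tested. NF-Y's alpha subunit, Nfya, differed by −0.05 between tumour and adjacent tissue.

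Of the interferon gamma axis, which drives Ciita outside professional presenting cells, 5 of 16 genes fell and none rose in tumour against adjacent tissue. Of all genes 13.8% fell and 14.3% rose there. Ifngr1, the ligand-binding receptor chain, fell by 1.12 and the factor Irf2 by 0.96. Ifng read 4.85 to 5.53 in adjacent tissue and 4.72 to 7.16 in tumour, a difference of 0.85 (adjusted p = 0.23). Irf1 differed by −0.45 (adjusted p = 0.30). In adjacent tissue against wild type 2 rose and 2 fell, where 17.7% of all genes rose and 10.1% fell. Jak2 was higher (0.42) and Ifngr2, the second receptor chain, lower (−1.77).

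The list for class II antigen processing, which holds Lamp1, Lamp2, Ap1m1 and Ap2m1 beside proteases and a reductase, went both ways. In tumour against adjacent tissue 4 of 13 rose, Lamp2 among them (0.54), and 2 fell. Of all genes 14.3% rose and 13.8% fell there. The thiol reductase Ifi30 fell from 13.19 ± 0.12 to 12.19 ± 0.14 (SD, n = 3, adjusted p = 4.2e-05 by limma) and Ctss, the protease that finishes invariant chain removal, fell by 0.33 (adjusted p = 0.029). Ctsd, an aspartic protease of lysosomes, rose by 0.91 and Lgmn, an endopeptidase, by 0.59. Against wild type, 1 rose and 3 fell in adjacent tissue, where 17.7% of all genes rose and 10.1% fell. Ap1m1, an adaptor of vesicle sorting, was higher (1.16) and Ctsd lower (−1.08).

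Among genotypes without a tumour, Olfm4 mutant colon read lowest for the classical chains. None of the 9 genes passed in Olfm4 mutant against wild type, where 7.92% of all genes did. By limma 3 reached an unadjusted p under 0.05, and 24.6% of all genes did so. H2-Eb1 differed by −0.62 (SE 0.18, adjusted p = 0.057), H2-Aa by −0.59 (SE 0.20, adjusted p = 0.080) and H2-DMa by −1.13 (SE 0.35, adjusted p = 0.065). For each of the 3 every Olfm4 mutant array was below every wild type array, as held in that direction for 10% of all genes. H2-Ab1 (−0.47), Ciita (−0.47) and Cd74 (−0.12) were overlapping, and H2-Ob differed by 1.09. The count became 2 without wild type replicate 1 or wild type replicate 3, and 1 without Olfm4 mutant replicate 1. The all-gene shares of those fits are not given here.

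Olfm4 mutant replicate 2 was the lowest of the 15 arrays for H2-Aa (11.94), H2-Ab1 (12.08), H2-Eb1 (12.06) and Ciita (5.71). It also had the highest spike-in difference of its group, at 3.25. In Olfm4 mutant against wild type 4 of 16 regulators rose, where 7.92% of all genes passed in either direction. Among them were the NF-Y subunits Nfya (0.75), Nfyb (0.72) and Nfyc (0.50). Irf8, a factor of dendritic and B cells, fell by 0.75.

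In APC mutant against wild type none of the 9 passed (0% of all genes did), and none reached an unadjusted p under 0.05 by limma, against 7.28% of all genes. The widest interval was that of H2-Ob, from −0.14 to 2.73, so a change of several-fold there would not have been detected. For Cd74 the interval was −0.34 to 0.26. In Olfm4 mutant against APC mutant none passed either (0.242% of all genes did), with 3 at an unadjusted p under 0.05 by limma, as were 14.2% of all genes. In that comparison 4 of the 9 had Olfm4 mutant arrays wholly below, as 6.79% of all genes did.

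Adjacent tissue was also compared with the single mutants. Against APC mutant 0 of 9 passed where 17.3% of all genes did, with 1 at an unadjusted p under 0.05 by limma, as were 33.1% of all genes. Against Olfm4 mutant 0 of 9 passed and 0.044% of all genes did, with 2 at an unadjusted p under 0.05 by limma, as were 16.3% of all genes. There 7 of the 9 genes had every adjacent array above every Olfm4 mutant array, which held for 13.9% of all genes. The interaction, which asks whether the Olfm4 difference changed with the Apc genotype, passed for 0 of 9 genes and 0% of all genes, and 2 of 9 reached an unadjusted p under 0.05 by limma, as 10.4% of all genes did. Those 2 were H2-Aa (0.67, 95% interval 0.07 to 1.27) and H2-Ab1 (0.76, 95% interval 0.10 to 1.43).

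Tumour was set against the 3 genotypes without one as well. Against wild type 2 of 9 genes fell where 49.4% of all genes passed and 20.1% fell, and against APC mutant 3 fell where 47.4% passed and 19.5% fell. Against Olfm4 mutant 1 rose and 1 fell, where 39.8% passed (21.1% higher, 18.6% lower). The gene that rose was H2-Aa (0.52, adjusted p = 0.049). The call was lost without Olfm4 mutant replicate 2 (0.29, adjusted p = 0.21) or replicate 3 (adjusted p = 0.066), and without tumour replicate 2 (0.14) or 3 (0.13). These comparisons share the tumour arrays, so their counts are not separate evidence.

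Different probe sets of a gene read it differently, and H2-Aa shows this best. Probe set 1435290_x_at, used above, hardly moved. Probe set 1452431_s_at read 11.70, 12.16 and 11.31 in wild type, 11.20, 10.82 and 11.19 in the APC mutant, 10.45, 9.41 and 10.22 in the Olfm4 mutant, 9.56, 10.02 and 9.61 in adjacent tissue, and 8.62, 9.30 and 9.35 in tumour. It stepped down from group to group in the order of the arrays. Against wild type it fell by 2.00 in adjacent tissue (adjusted p = 0.00042), by 2.63 in tumour (adjusted p = 1.1e-05) and by 1.70 in Olfm4 mutant (adjusted p = 0.0067), adjusted over all 34945 probe sets of 1 symbol. In tumour against Olfm4 mutant it fell by 0.93 (adjusted p = 0.024), the opposite of the rise through the main probe set. Probe set 1438858_x_at rose there by 0.83 (adjusted p = 0.0093).

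H2-Ab1 divided in the same way in tumour against wild type. The main probe set differed by −0.07, while 1451721_a_at fell by 1.52 (adjusted p = 0.0028) and 1425477_x_at by 1.39 (adjusted p = 0.0040). In tumour against adjacent tissue 1451721_a_at read 9.63 to 10.61 against 10.81 to 11.45. There 1425477_x_at read 8.27 to 9.21 against 9.41 to 10.05, and H2-Aa 1452431_s_at 8.62 to 9.35 against 9.56 to 10.02. None of these ranges touched. That held in that direction for 22.3% of all genes, each read through its brightest probe set, and the share over all probe sets is not given here. The other dimmer probe sets of H2-Aa overlapped. For H2-DMb2 the dimmer 1419744_at fell by 1.16 in adjacent tissue against wild type (adjusted p = 0.042), where the main probe set differed by 0.79. At this level 7 of the 19 class II probe sets fell in tumour against wild type, where 21.9% of all probe sets did. The correlations of these probe sets with the spike-in 3′ minus 5′ difference over the 15 arrays were −0.885 for 1452431_s_at, −0.766 for 1451721_a_at, −0.697 for 1425477_x_at and −0.735 for 1419744_at, against 0.079 and 0.163 for the main probe sets of H2-Aa and H2-Ab1. Where each probe set lies along its transcript is not given in the sources used here, and the part of the array order in these falls was not tested.

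**Figure D5:**
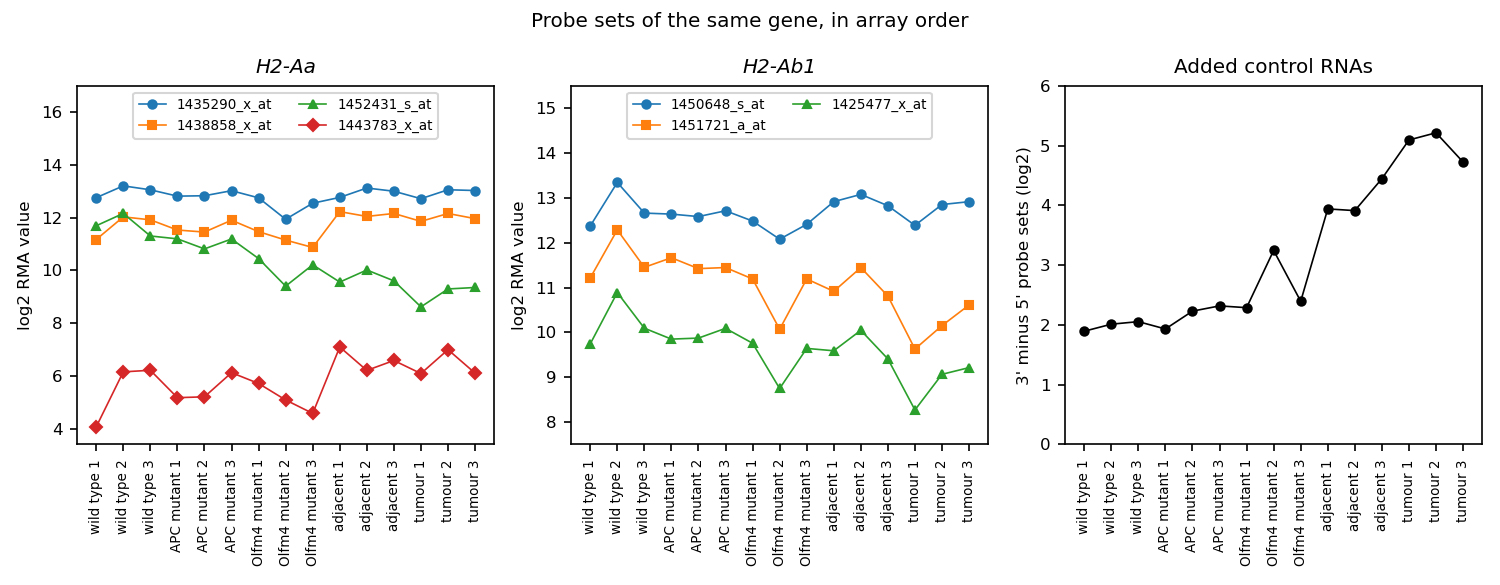
Log2 signal of the 4 probe sets of H2-Aa and of the 3 of H2-Ab1 in each array, in array number order, with the groups in blocks of 3, beside the spike-in 3′ minus 5′ difference. H2-Aa 1452431_s_at falls from 11.31 to 12.16 in wild type to 8.62 to 9.35 in tumour while 1435290_x_at stays between 11.94 and 13.21.

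The genes whose pattern was most like the class II genes were ranked by Pearson correlation with the mean of the 9, each scaled, over the 15 arrays. The first 8 were Wdfy4 (0.806), Cd52 (0.803), Ptprcap (0.797), Nfam1 (0.796), Il21r (0.770), AW112010 (0.770), Slfn2 (0.769) and Msmo1 (0.765). After group means were taken away they were Upp1 (0.937), Cd3d (0.934), Nfam1 (0.914), Cd209g (0.907), 9330111N05Rik (0.882), Ubd (0.861), Ing5 (0.860) and Catsper2 (0.856). Nfam1 was on both. By Spearman's rank 3 of the first 8 remained in each case, so the order below the first name is loose. Wdfy4 and Upp1 stayed first by that rank. Over the 15 arrays Cd52 ranked 33 and Nfam1 210, and after group means were taken away Cd3d ranked 18 and Nfam1 81. Wdfy4 fell in tumour against adjacent tissue (−0.89, adjusted p = 0.0043), and Nfam1 differed by −0.08.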

How the data were processed

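Labelled cRNA from total colon RNA was hybridised to 15 Affymetrix mouse whole-genome arrays, 3 in each of 5 groups. The authors deposited log2 values, and RMA and Partek 6.5 are named per the submitters' processing notes. The values ran from 2.56 to 14.96, with array medians of 6.35 to 6.47; precision is limited by the 3 arrays a group. Of 45101 probe sets, 34945 carried 1 symbol in the platform annotation, 932 several (not used) and 9160 none; 64 controls were set aside. The probe set with the highest mean stood for each of 18193 genes.

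The values were fitted with limma 3.58.1 in R 4.3.3 (lmFit and eBayes, 5 group means), with Benjamini-Hochberg adjustment in each of 10 comparisons and the interaction; the code was tested on simulated data. Same-numbered adjacent and tumour arrays share an animal by their titles; their deviations from group means correlated at 0.281, −0.0155 and 0.182. Every measured class II gene was reported; of 17 further lists (180 genes measured), a fixed set and up to 2 genes in each direction were named. The genes and lists were chosen with earlier results of these data known. Alternatives were other probe set rules, a filter on dim genes, cyclic loess, a trended robust prior, array weights, blocks by animal or number, averaged animals, a spike-in covariate, only the groups compared, and leaving out each array. Promoters came from RefSeq, build GRCm38.p6.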

Additional observations from a re-analysis of the deposited data

How the results depend on the processing

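The counts below are of the 9 class II genes that passed limma's threshold. They are given without the all-gene share of each setting. They show how the calls move with the setting and are no result about class II genes in particular. With the spike-in difference as a covariate the counts were 0 in tumour against adjacent tissue, wild type, APC mutant and Olfm4 mutant and 0 in adjacent tissue against wild type. That covariate nearly repeats the groups. It turned the sign of H2-DMa in adjacent tissue against wild type (0.49), in tumour against wild type (0.73) and against APC mutant (0.80). It also did so for H2-DMb2 in tumour against wild type (0.41) and H2-Oa in tumour against APC mutant (0.54). The 95% interval of each of these estimates included its main estimate, so these fits cannot decide the direction. With the most variable probe set per gene the counts were 4 for tumour against wild type, 5 for tumour against APC mutant, 2 for adjacent tissue against APC mutant and 1 for Olfm4 mutant against wild type, and H2-Aa in tumour against Olfm4 mutant reversed to −0.93. With the mean of all probe sets the count was 1 in adjacent tissue against wild type and 1 in tumour against Olfm4 mutant. With only the groups compared it was 1 in adjacent tissue against wild type, 1 in tumour against wild type and 1 in adjacent tissue against APC mutant. Array weights gave 1 in Olfm4 mutant against wild type, 1 in adjacent tissue against APC mutant, 2 in adjacent tissue against Olfm4 mutant and 4 in tumour against Olfm4 mutant. In Olfm4 mutant against wild type the filter on dim genes gave 2, cyclic loess 1 and the trended robust prior 1; the filter gave 1 in adjacent tissue against APC mutant. Averaging the arrays of an animal gave 1 in adjacent tissue against wild type and 1 in tumour against Olfm4 mutant, as did animal as a random block in the latter. The cause was not tested. Animal or number as a fixed replicate block left 3 genes in tumour against adjacent tissue and changed no call there. Leaving out 1 array gave 2 to 3 in tumour against adjacent tissue, 0 to 4 in adjacent tissue against wild type (0 without wild type replicate 2, 4 without wild type replicate 3), 2 to 3 in tumour against wild type and against APC mutant, 1 to 3 in tumour against Olfm4 mutant, and 0 to 2 in Olfm4 mutant against wild type; it gave 0 throughout in the other single mutant comparisons and the interaction. Over the other settings 87 of 112 counts equalled their main value or, where neither was 0, stayed within 1.5 times it. That total includes counts of 0 that stayed 0, as in the interaction, where 0% of all genes passed in the main fit. It is therefore no measure of how stable the calls are.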

Other observations

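Genes that act with class II at the contact with T cells were counted as well. Of 9 measured co-stimulation genes 1 rose and 2 fell in tumour against adjacent tissue: Tnfsf9, the 4-1BB ligand, rose by 2.11, while Icosl, the ligand of ICOS, fell by 1.17 and Cd83, a maturation marker of presenting cells, fell by 0.96 (log2, limma). In that comparison 14.3% of all genes rose and 13.8% fell. Of 12 CD4 T cell markers 1 fell, the co-stimulation receptor Cd28 (−1.87), while Cd4 (−0.47) and Cd3e (−0.28) did not pass. In adjacent tissue against wild type 3 of the 12 rose, among them Icos (1.60) and Cd3e (1.12), where 17.7% of all genes rose and 10.1% fell. The median over all genes was 0.002 in the first comparison and 0.132 in the second.

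Class I presentation, the parallel route that shows peptides from within the cell to CD8 T cells, had 1 of 16 genes lower and none higher in tumour against adjacent tissue. That gene was Psmb10 (−0.83), a catalytic subunit of the immunoproteasome, where 13.8% of all genes fell and 14.3% rose. B2m, the light chain of class I, differed by 0.09, and Nlrc5, the class I counterpart of Ciita, by 0.65 without passing. In adjacent tissue against wild type 1 of the 16 rose and 4 fell, with the immunoproteasome genes Psmb9 (−1.32) and Psme1 (−1.19) among those that fell, beside 17.7% of all genes higher and 10.1% lower. Of 7 markers of group 3 innate lymphoid cells, which can carry class II in the colon, 2 rose and 1 fell in tumour against adjacent tissue. Endothelial markers passed in 1 of 8 cases, lower, and fibroblast markers in 2 of 7, 1 in each direction.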
